A study of Arabidopsis thaliana with 18 samples.

Results

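The mitochondria-encoded transcripts described here are the rows of the expression tables whose identifier starts with ATMG, the prefix of the Arabidopsis mitochondrial genome, and whose mean over 18 libraries was at least 0.5 CPM. Of 120 such rows 64 met this minimum and 56 did not. The tables hold 32811 rows, of which 28215 met the same minimum and were tested. The libraries came from whole Columbia (Col-0) seedlings of sob3-6 and SOB3-D, pooled per sample, at 3 times of a short day with 8 h of light and 16 h of dark. ZT4 and ZT9 are 4 and 9 hours after dawn in seedlings 5 days old, ZT24 is the next dawn in seedlings 6 days old, and each genotype has 3 replicates at each time. SOB3-D is an activation-tagged line that overexpresses SOB3, an AHL protein with an AT-hook that binds DNA and restrains hypocotyl growth. sob3-6 carries a missense change in that AT-hook in the same overexpressed copy, and the altered protein is dominant-negative. Both genotypes therefore share the overexpression allele, and a wild type was not analysed here. Because whole seedlings were pooled, fewer cells rich in mitochondria and less mitochondrial RNA per cell cannot be told apart.

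The mitochondrial genome of plants encodes subunits of the respiratory chain and of ATP synthase, proteins that mature cytochrome c, some ribosomal proteins and many open reading frames of unknown function. Other subunits of the same complexes are made from nuclear genes and imported. In plant mitochondria a poly(A) tail marks an RNA for decay, and most mitochondrial RNA carries none. The library kit selects polyadenylated RNA, so the levels below are those of captured transcripts and may not follow the full RNA pool. Arabidopsis also has a large insertion of mitochondrial DNA on chromosome 2 with near-identical copies of the organelle's genes.

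These copies bear on what a row counts, since the authors counted each read on every transcript it matched best. Notes on chromosome 2 gene models in the RefSeq annotation (TAIR10.1) name the matching ATMG identifier for 30 of the 64 members, through 31 copies, with a function for 23 of them. The other 34 members are given by identifier alone. For 17 of the 30, every stretch of 84 bases, the shorter read length, in the coding sequence of a copy also occurs in the mitochondrial sequence. In all 18 libraries 6 members had the same value as a chromosome 2 row, and a further pair, ATMG00170 and ATMG00620, had the same values as each other. For such rows the organelle and its nuclear copy cannot be told apart. The stretches printed here are from RefSeq and show the sharing for members on which the results turn. ATMG00980 is annotated as ribosomal protein S12, and the start of its copy, on the plus strand at chr2:3270410-3270529, is identical to mitochondrial positions 288446 to 288565.
ATMG00980 copy: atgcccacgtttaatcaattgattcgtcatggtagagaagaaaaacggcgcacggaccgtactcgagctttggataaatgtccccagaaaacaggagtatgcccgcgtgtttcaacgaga
ATMG01080 is annotated as F0 subunit 9 of ATP synthase. A stretch of its copy, on the minus strand at chr2:3251934-3252113, is identical to mitochondrial positions 271039 to 271218, also on the minus strand.
ATMG01080 copy: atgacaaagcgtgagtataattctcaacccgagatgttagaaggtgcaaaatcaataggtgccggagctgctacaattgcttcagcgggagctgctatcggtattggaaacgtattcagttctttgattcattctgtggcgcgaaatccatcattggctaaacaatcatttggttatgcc
ATMG00280 is annotated as the catalytic domain of the large chain of ribulose bisphosphate carboxylase, the chloroplast enzyme that fixes carbon dioxide. The end of its copy, on the minus strand at chr2:3468424-3468594, is set beside rbcL at plastid positions 55642 to 55812, with the 9 bases that differ in capitals.
ATMG00280 copy: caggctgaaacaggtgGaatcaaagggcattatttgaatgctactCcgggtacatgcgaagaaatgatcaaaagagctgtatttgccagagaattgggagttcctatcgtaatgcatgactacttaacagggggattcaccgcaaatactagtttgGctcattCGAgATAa
rbcL in the plastid genome: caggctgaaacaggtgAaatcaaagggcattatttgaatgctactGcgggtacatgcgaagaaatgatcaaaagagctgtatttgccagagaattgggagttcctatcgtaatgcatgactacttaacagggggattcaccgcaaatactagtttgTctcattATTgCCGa
The longest run shared by the ATMG00280 copy and the plastid sequence is 110 bases, so a read of 84 bases can fit inside it. Of the 268 windows of 84 bases in this copy 184 occur in the mitochondrial and 27 in the plastid sequence. ATMG00370, annotated as a Ycf1 protein after another chloroplast gene, has a copy that shares 122 of 517 windows and a run of 200 bases with plastid ycf1.

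Mean levels of the members ran between 0.534 and 123 CPM, with a median of 5.57 CPM, where CPM is the number of reads on a transcript, scaled by the authors to the mapped reads of the library. The 4 members at or above 50 CPM held 41.4% of the mean mitochondrial total, which is the sum over the 64 members, and the 10 highest held 64.1%. The 13 members between 0.5 and 1 CPM held 1.19%. Just inside the minimum lay ATMG01350 at 0.534 CPM and ATMG01120 at 0.631 CPM, and just outside it ATMG01210 at 0.467 CPM and ATMG00200 at 0.444 CPM. A count of 0 in a library would allow up to 0.271 to 0.499 CPM, or 3 reads, a limit for counting error alone, so the lowest members rest on few reads.

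The highest member was ATMG00030, without annotation here, with a mean share of 14.2% of the total. At ZT4 ATMG00030 had 259, 119 and 76.5 CPM in sob3-6 against 208, 106 and 136 CPM in SOB3-D. At ZT9 ATMG00030 had 117, 111 and 108 CPM in sob3-6 against 92.0, 103 and 77.0 CPM in SOB3-D. At ZT24 ATMG00030 had 95.0, 104 and 80.7 CPM in sob3-6 against 165, 150.3 and 108 CPM in SOB3-D. Its genotypes overlapped at ZT4, sob3-6 was above SOB3-D in every library at ZT9, and below it in every library at ZT24. Neither difference passed the main test, at 0.31 ± 0.11 (SE, limma adjusted p = 0.114) on the log2(CPM + 0.5) scale at ZT9 and -0.58 ± 0.15 (SE, limma adjusted p = 0.0605) at ZT24. Both passed with the replicate number as a block (limma adjusted p = 0.0369 and 0.00137). Here and below a difference is sob3-6 minus SOB3-D, or later minus earlier time, and the p-value is adjusted by Benjamini-Hochberg over the 28215 transcripts, with a threshold of 0.05. Counts of members by unadjusted p are given below without the share of all transcripts, so they have no background.

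ATMG01190, annotated as ATP synthase subunit 1 and known as the alpha subunit of the catalytic head, held 12.2% of the total. At ZT4 ATMG01190 had 185, 78.7 and 75.9 CPM in sob3-6 against 231, 90.01 and 119 CPM in SOB3-D. At ZT9 ATMG01190 had 105, 96.1 and 83.6 CPM in sob3-6 against 87.7, 99.6 and 93.0 CPM in SOB3-D. At ZT24 ATMG01190 had 86.5, 70.3 and 62.0 CPM in sob3-6 against 159.5, 100.3 and 93.2 CPM in SOB3-D. Its genotypes were separate at ZT24 alone, with sob3-6 below. ATMG01080, the subunit that forms the rotating ring of ATP synthase in the membrane, was the sixth highest member. At ZT4 ATMG01080 had 76.2, 34.8 and 33.7 CPM in sob3-6 against 66.4, 29.4 and 50.7 CPM in SOB3-D. At ZT9 ATMG01080 had 43.3, 41.9 and 35.2 CPM in sob3-6 against 35.7, 40.6 and 44.0 CPM in SOB3-D. At ZT24 ATMG01080 had 37.0, 28.5 and 26.8 CPM in sob3-6 against 62.4, 37.9 and 40.4 CPM in SOB3-D. At ZT4 and ZT9 its genotypes overlapped, and at ZT24 every sob3-6 library was below every SOB3-D library.

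ATMG00980 encodes a protein of the small ribosomal subunit. At ZT4 ATMG00980 had 103, 90.2 and 52.7 CPM in sob3-6 against 96.4, 81.5 and 63.9 CPM in SOB3-D. At ZT9 ATMG00980 had 77.8, 81.0 and 89.6 CPM in sob3-6 against 52.4, 48.0 and 94.6 CPM in SOB3-D. At ZT24 ATMG00980 had 62.2, 50.3 and 42.8 CPM in sob3-6 against 122, 67.3 and 46.9 CPM in SOB3-D. The genotypes overlapped at every time, with replicate 3 of SOB3-D at ZT9 and replicate 1 of SOB3-D at ZT24 above the rest of their groups. ATMG00990 is annotated as NADH dehydrogenase 3, a membrane subunit of complex I. At ZT4 ATMG00990 had 37.5, 28.5 and 19.4 CPM in sob3-6 against 47.1, 27.1 and 31.3 CPM in SOB3-D. At ZT9 ATMG00990 had 30.1, 32.0 and 26.5 CPM in sob3-6 against 27.4, 24.4 and 17.0 CPM in SOB3-D. At ZT24 ATMG00990 had 23.2, 21.9 and 20.7 CPM in sob3-6 against 43.3, 25.3 and 19.2 CPM in SOB3-D. These groups overlapped at ZT4 and ZT24 and overlapped at ZT9 only by the lowest sob3-6 and the highest SOB3-D library. Of the 17 members whose copy lies wholly within the mitochondrial sequence, ATMG00980 had the highest mean level per kilobase of the coding sequence of the copy, 194 CPM per kilobase. ATMG01080 followed at 165, ATMG00990 at 78.1 and ATMG00370 at 58.1 CPM per kilobase, and ATMG00900, a cytochrome c biogenesis protein, was lowest at 1.81.

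ATMG00090, ATMG00640, ATMG00080 and ATMG00160 also belong to the 10 highest members and carry no annotation here. At ZT4 ATMG00090 had 82.4, 43.4 and 33.7 CPM in sob3-6 against 142, 67.1 and 55.4 CPM in SOB3-D. At ZT9 ATMG00090 had 44.9, 52.7 and 49.6 CPM in sob3-6 against 50.05, 45.3 and 43.8 CPM in SOB3-D. At ZT24 ATMG00090 had 34.0, 36.8 and 31.6 CPM in sob3-6 against 109.8, 58.5 and 38.1 CPM in SOB3-D. ATMG00090 was separate at ZT24, with sob3-6 below. At ZT4 ATMG00640 had 65.5, 48.1 and 32.9 CPM in sob3-6 against 48.5, 40.4 and 39.1 CPM in SOB3-D. At ZT9 ATMG00640 had 41.7, 58.4 and 54.7 CPM in sob3-6 against 27.7, 32.8 and 51.1 CPM in SOB3-D. At ZT24 ATMG00640 had 34.9, 33.2 and 35.2 CPM in sob3-6 against 66.9, 45.1 and 25.1 CPM in SOB3-D. ATMG00640 overlapped at all 3 times. At ZT4 ATMG00080 had 38.1, 20.1 and 16.6 CPM in sob3-6 against 55.6, 29.8 and 21.6 CPM in SOB3-D. At ZT9 ATMG00080 had 20.0, 23.95 and 23.6 CPM in sob3-6 against 20.4, 20.5 and 26.0 CPM in SOB3-D. At ZT24 ATMG00080 had 17.8, 13.0 and 13.5 CPM in sob3-6 against 47.7, 28.9 and 17.5 CPM in SOB3-D. For ATMG00080 the lowest SOB3-D library at ZT24 lay just under the highest sob3-6 library. At ZT4 ATMG00160 had 39.5, 22.1 and 17.1 CPM in sob3-6 against 44.4, 18.2 and 28.1 CPM in SOB3-D. At ZT9 ATMG00160 had 25.0, 21.9 and 17.9 CPM in sob3-6 against 16.5, 26.0 and 19.7 CPM in SOB3-D. At ZT24 ATMG00160 had 19.2, 17.1 and 18.5 CPM in sob3-6 against 33.1, 18.02 and 21.6 CPM in SOB3-D. ATMG00160 overlapped at every time as well, and in all 4 of these members replicate 1 at ZT4 was the highest library of its group.

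The ZT4 libraries had mitochondrial totals of 1630.3, 764 and 602 CPM in sob3-6 against 1589, 834 and 886 CPM in SOB3-D. The ZT9 totals were 830.3, 834 and 791 CPM in sob3-6 against 706, 740.2 and 756 CPM in SOB3-D. The ZT24 totals were 662, 609.6 and 558 CPM in sob3-6 against 1314, 858 and 688 CPM in SOB3-D. Replicate 1 of both genotypes at ZT4 and replicate 1 of SOB3-D at ZT24 stood above all other libraries. In replicate 1 of sob3-6 at ZT4, 64 of 64 members exceeded both other replicates, with a median ratio of 2.43 to their mean. In replicate 1 of SOB3-D 60 of 64 did so at ZT4 and 60 of 64 at ZT24, with median ratios of 1.92 and 1.85. Over all tested transcripts the median ratios in these 3 libraries were 1.02, 1.04 and 0.9996, and the sum of the 88 chloroplast-encoded rows was 1.72, 1.28 and 1.09 times that of the other replicates. The part of chloroplast RNA in the high totals was not tested. ATMG00370 had the lowest ratio of all members in both libraries at ZT4, 1.14 in sob3-6 and 0.887 in SOB3-D.

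**Figure D1:**
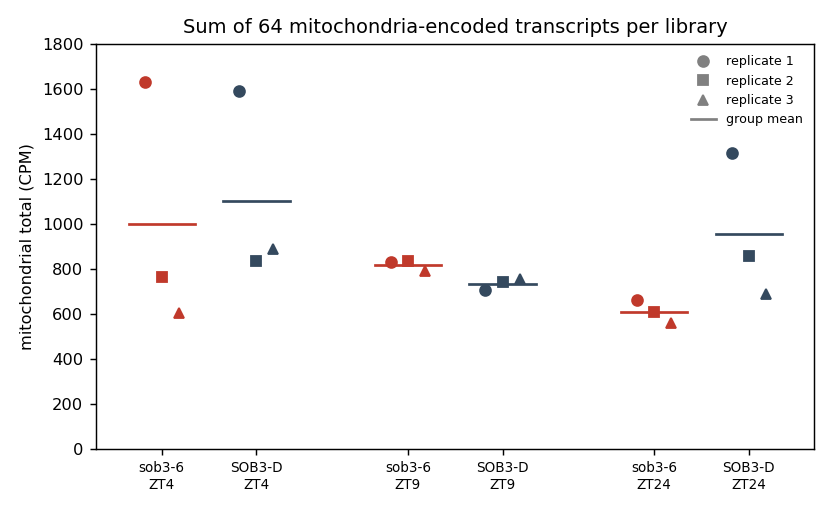
Mitochondrial total in CPM (y axis), the sum of the 64 members, in each library, by genotype and time (x axis), with 1 symbol per replicate number and a line at the group mean. The highest totals, 1630, 1589 and 1314 CPM, are replicate 1 libraries, and the genotypes do not overlap at ZT9 and ZT24.

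**Figure D2:**
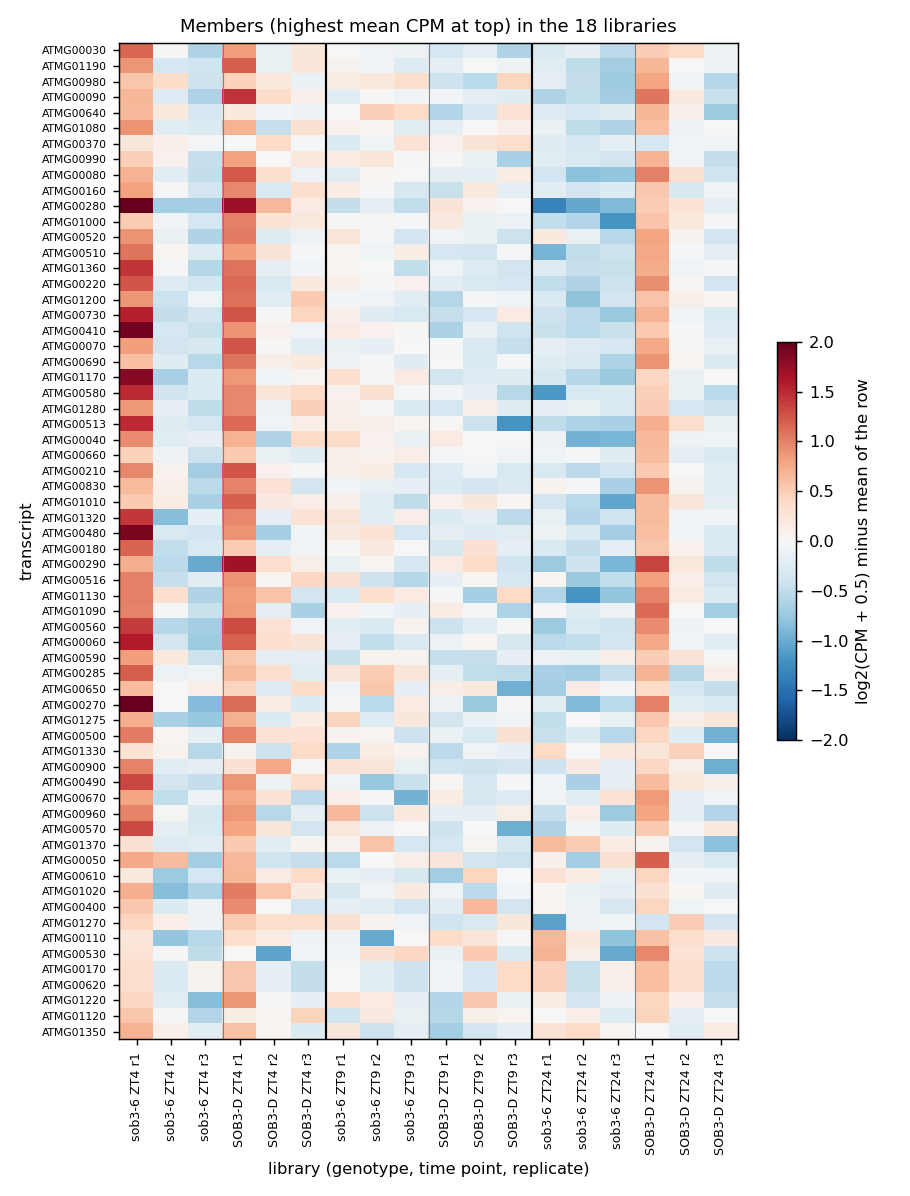
Each member (a line of cells, highest mean CPM at the top) in each of the 18 libraries (columns), as log2(CPM + 0.5) minus the mean of that member, with red above and blue below. The 3 replicate 1 libraries with totals of 1630, 1589 and 1314 CPM stand out as red columns.

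At ZT4 the total averaged 999 ± 553 CPM in sob3-6 against 1103 ± 422 CPM in SOB3-D (SD, n = 3 each). At ZT9 it averaged 818 ± 24.2 CPM in sob3-6 against 734 ± 25.8 CPM in SOB3-D, and every sob3-6 library was above every SOB3-D library. At ZT24 it averaged 609.9 ± 52.1 CPM in sob3-6 against 953 ± 324 CPM in SOB3-D, and every sob3-6 library was below every SOB3-D library. The log2 difference was -0.22 at ZT4 (exact permutation p = 0.6, two-sided), 0.16 at ZT9 (exact permutation p = 0.1) and -0.59 at ZT24 (exact permutation p = 0.1). With 3 libraries against 3 a p of 0.1 is the smallest possible, so this design cannot pass 0.05 at a single time. Without replicate 1 of SOB3-D the ZT24 difference was -0.34, and without replicate 1 of both genotypes the ZT4 difference was -0.34. The ZT4 difference was -0.64 without replicate 1 of sob3-6 alone and 0.08 without replicate 1 of SOB3-D alone, so its sign rested on these libraries. Over the 3 times, with genotype labels exchanged within each time, the mean difference was -0.22 (exact permutation p = 0.282, two-sided).

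Between time points the total of both genotypes differed by -0.34 for ZT9 against ZT4 (exact permutation p = 0.285, two-sided, time labels exchanged within each genotype). The values were -0.05 for ZT24 against ZT9 (exact permutation p = 0.790) and -0.39 for ZT24 against ZT4 (exact permutation p = 0.215). Without the 3 high libraries they were 0.0208, -0.18 and -0.16 in the same order. Adjusted over these 4 tests of the total, the exact permutation p was 0.380 for genotype, and none of the 4 passed 0.05 before adjustment. Without replicate 3 of sob3-6 at ZT4, the lowest library of that time, the difference for ZT9 against ZT4 was -0.49 (exact permutation p = 0.03).

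At ZT4 no member passed between sob3-6 and SOB3-D without the replicate block given below. Limma called 0 of 64, where 6.63% of all tested transcripts passed. An unadjusted p under 0.05 was reached by 0 members, and edgeR's quasi-likelihood test also called 0. The median log2 difference of the members was -0.17, with 46 of 64 below 0, beside 0.04 over all tested transcripts. Of the members 0 were separate between genotypes in either direction, beside 17.4% of all transcripts with sob3-6 above and 10% with sob3-6 below. The members with the smallest p were ATMG00610, annotated as a putative membrane lipoprotein, and ATMG00290, annotated as ribosomal protein S4. At ZT4 ATMG00610 had 1.12, 0.349 and 0.598 CPM in sob3-6 against 1.73, 1.08 and 1.33 CPM in SOB3-D. At ZT9 ATMG00610 had 0.781, 0.752 and 0.625 CPM in sob3-6 against 0.372, 1.40 and 0.901 CPM in SOB3-D. At ZT24 ATMG00610 had 1.22, 1.06 and 0.764 CPM in sob3-6 against 1.39, 0.852 and 0.820 CPM in SOB3-D. The groups of ATMG00610 overlapped at every time, and its ZT4 difference was -0.70 ± 0.31 (SE, limma adjusted p = 0.234). At ZT4 ATMG00290 had 7.87, 3.03 and 2.03 CPM in sob3-6 against 15.7, 5.96 and 4.99 CPM in SOB3-D. At ZT9 ATMG00290 had 4.13, 4.77 and 3.50 CPM in sob3-6 against 5.20, 6.03 and 3.35 CPM in SOB3-D. At ZT24 ATMG00290 had 2.56, 3.30 and 2.18 CPM in sob3-6 against 12.5, 5.36 and 3.07 CPM in SOB3-D. The groups of ATMG00290 overlapped at every time too, with a ZT4 difference of -0.98 ± 0.49 (SE, limma adjusted p = 0.285). With the replicate number as a block, which stands for the plates that both genotypes shared, 4 members were lower in sob3-6 beside 3.83% of all transcripts, namely ATMG00080, ATMG00090, ATMG00290 and ATMG01000. Without the 3 high libraries ATMG00280 alone of the members was lower, at -1.09 (limma adjusted p = 0.0363). The share of all transcripts in that fit is not given.

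Without the replicate block ATMG00280 was lower in sob3-6 at ZT9 and no member was higher: 1 of 64 passed as lower, beside 4.09% of all tested transcripts in that direction and 10% in either. The median log2 difference of the members was 0.14, with 49 of 64 above 0, beside 0.03 over all transcripts. Every sob3-6 library was above every SOB3-D library for 10 members, beside 18.3% of all transcripts, and below for 2, beside 12.2%. The largest positive difference was that of ATMG00285, 0.72 ± 0.21 (SE, limma adjusted p = 0.0638), which did not pass. With the replicate block 3 members passed, beside 16.6% of all transcripts: ATMG00280 was lower in sob3-6, and ATMG00030 and ATMG00640 were higher, at 0.31 and 0.50.

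Without the replicate block ATMG00280, ATMG01000 and ATMG00513 were lower in sob3-6 at ZT24 and no member was higher: 3 of 64 passed as lower, beside 2.08% of all tested transcripts in that direction and 7.01% in either. The median log2 difference of the members was -0.49, with 60 of 64 below 0, beside 0.01 over all transcripts. An unadjusted p under 0.05 was reached by 24 members, a count without the share of all transcripts beside it. Every sob3-6 library was below every SOB3-D library for 24 members, beside 11.6% of all transcripts, and above for 1, beside 15.9%. ATMG01000 carries no annotation here. At ZT4 ATMG01000 had 27.1, 18.3 and 14.9 CPM in sob3-6 against 38.9, 23.1 and 22.0 CPM in SOB3-D. At ZT9 ATMG01000 had 19.2, 19.2 and 18.4 CPM in sob3-6 against 21.6, 17.0 and 17.5 CPM in SOB3-D. At ZT24 ATMG01000 had 13.3, 12.5 and 8.07 CPM in sob3-6 against 28.3, 21.9 and 18.8 CPM in SOB3-D. The genotypes of ATMG01000 were separate at ZT24 alone, where the difference was -1.005 ± 0.21 (SE, limma adjusted p = 0.0218). ATMG00513 has no annotation here either. At ZT4 ATMG00513 had 19.1, 5.35 and 5.02 CPM in sob3-6 against 14.7, 6.14 and 7.15 CPM in SOB3-D. At ZT9 ATMG00513 had 7.03, 7.02 and 6.74 CPM in sob3-6 against 6.57, 4.63 and 2.58 CPM in SOB3-D. At ZT24 ATMG00513 had 4.40, 4.01 and 3.93 CPM in sob3-6 against 10.98, 8.40 and 5.84 CPM in SOB3-D. ATMG00513 had every sob3-6 library above SOB3-D at ZT9 and every one below at ZT24, where the difference was -0.91 ± 0.22 (SE, limma adjusted p = 0.0400).

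The call of ATMG01000 at ZT24 was lost without replicate 2 of sob3-6 (limma adjusted p = 0.0585) and without replicate 1 or 2 of SOB3-D (limma adjusted p = 0.0764 and 0.0692). ATMG00513 kept its call in 1 of 6 such fits, that without replicate 3 of SOB3-D, and in the other 5 the limma adjusted p was 0.0777 to 0.128. With the replicate block 16 members were lower in sob3-6 at ZT24, beside 4.99% of all transcripts, and the 3 called without the block were among them. The others included ATMG01190 at -0.66, ATMG01080 at -0.58, ATMG00980 at -0.50, ATMG00730, annotated as cytochrome c oxidase subunit 3, at -0.66, and ATMG00030 at -0.58. Without replicate 1 of SOB3-D, the library with the high total, ATMG00280 alone of the members passed, and the median of the members was -0.24. The share of all transcripts in that fit is not given.

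**Figure D3:**
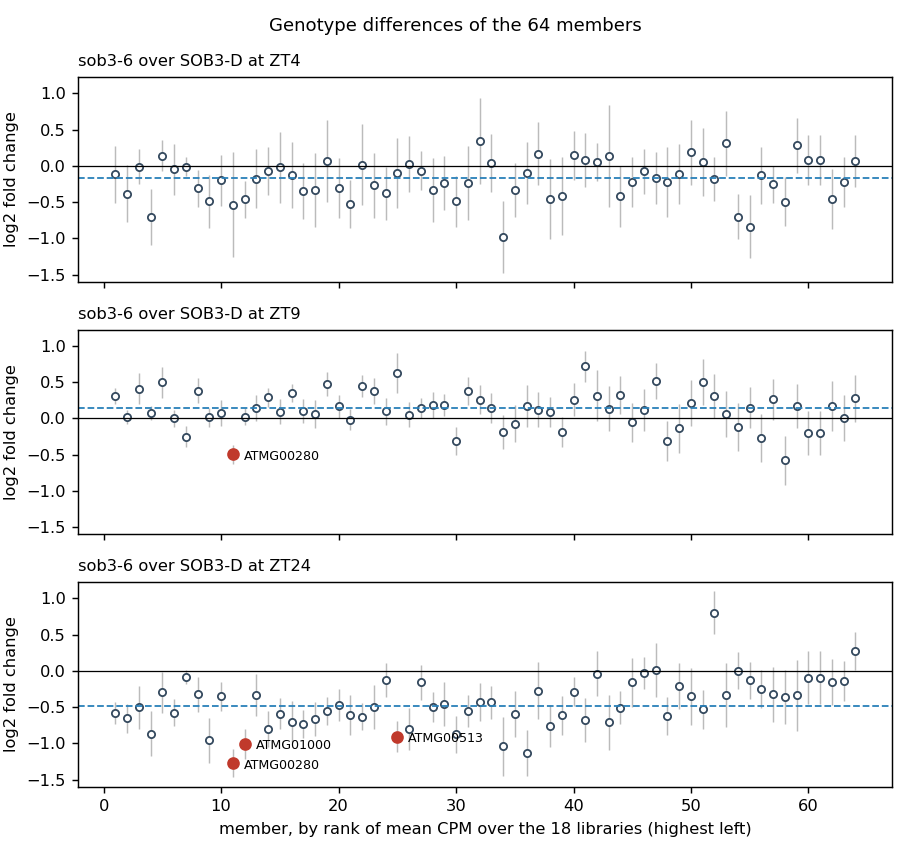
Log2 fold change of sob3-6 over SOB3-D (y axis, bars are SE) of the 64 members at ZT4, ZT9 and ZT24, ordered by mean CPM (x axis, rank). Filled points passed the limma test without the replicate block and dashed lines are the medians of the members, -0.17 at ZT4, 0.14 at ZT9 and -0.49 at ZT24.

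ATMG00280 passed at both ZT9 and ZT24. At ZT4 ATMG00280 had 87.5, 10.8 and 10.997 CPM in sob3-6 against 59.3, 28.2 and 20.0 CPM in SOB3-D. At ZT9 ATMG00280 had 12.6, 15.6 and 12.5 CPM in sob3-6 against 21.3, 18.8 and 17.8 CPM in SOB3-D. At ZT24 ATMG00280 had 6.72, 8.48 and 9.38 CPM in sob3-6 against 25.4, 21.4 and 15.5 CPM in SOB3-D. The genotypes were separate at ZT9 and ZT24 with sob3-6 below, and at ZT4 replicate 1 of both genotypes was far above the other libraries. The log2 difference was -0.54 ± 0.72 (SE, limma adjusted p = 0.718) at ZT4, -0.50 ± 0.13 (SE, limma adjusted p = 0.0490) at ZT9 and -1.27 ± 0.19 (SE, limma adjusted p = 0.00614) at ZT24. Leaving out any 1 of the 6 libraries ended the ZT9 call (limma adjusted p between 0.0671 and 0.178) and did not end the ZT24 call, whose difference stayed between -1.47 and -1.12. Both calls were lost with no minimum on CPM (limma adjusted p = 0.0874 at ZT9 and 0.0523 at ZT24) and in a fit of all 18 libraries (limma adjusted p = 0.619 and 0.196).

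Rows that may share reads with ATMG00280 moved with it. The row of its chromosome 2 copy, AT2G07732, had 2.65 times its CPM in the median library, with a range of 2.38 to 3.15. Of the 88 chloroplast-encoded rows ATCG00490, named by identifier alone, was most like it, with a Pearson r of 0.994 on the log2 scale over 18 libraries that share their depth, and 16.2 times its CPM in the median library. With the best of the 88 rows picked for each member, the next highest r was 0.940, for ATMG00290, and the lowest 0.397, for ATMG00530. The copies of both share 0 windows with the plastid sequence. What shared reads add to the r of ATMG00280 was not tested. At ZT4 ATCG00490 had 1424, 165 and 169.9 CPM in sob3-6 against 950.4, 466 and 363 CPM in SOB3-D. At ZT9 ATCG00490 had 228, 257 and 238 CPM in sob3-6 against 325, 316 and 296 CPM in SOB3-D. At ZT24 ATCG00490 had 97.6, 133 and 152 CPM in sob3-6 against 391.9, 353 and 238 CPM in SOB3-D. ATCG00490 had the same separate groups at ZT9 and ZT24 and the same high replicate 1 libraries at ZT4. At ZT4 AT2G07732 had 238, 28.7 and 27.7 CPM in sob3-6 against 147, 76.0 and 53.2 CPM in SOB3-D. At ZT9 AT2G07732 had 36.9, 41.5 and 39.3 CPM in sob3-6 against 52.5, 50.1 and 50.7 CPM in SOB3-D. At ZT24 AT2G07732 had 17.0, 22.5 and 22.5 CPM in sob3-6 against 60.3, 52.7 and 39.5 CPM in SOB3-D. AT2G07732 again had sob3-6 below SOB3-D in every library at ZT9 and ZT24. The ZT24 difference was -1.35 ± 0.20 (SE, limma adjusted p = 0.00584) for ATCG00490 and -1.27 ± 0.17 (SE, limma adjusted p = 0.00317) for AT2G07732. The sum of the chloroplast-encoded rows differed by -0.12 at ZT24 (exact permutation p = 0.2, n = 3 each), with 14929.8 ± 580.3 CPM in sob3-6 against 16264 ± 1014 CPM in SOB3-D. How the reads of ATMG00280 divide between mitochondria, chloroplasts and the nuclear copy cannot be told apart here.

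**Figure D4:**
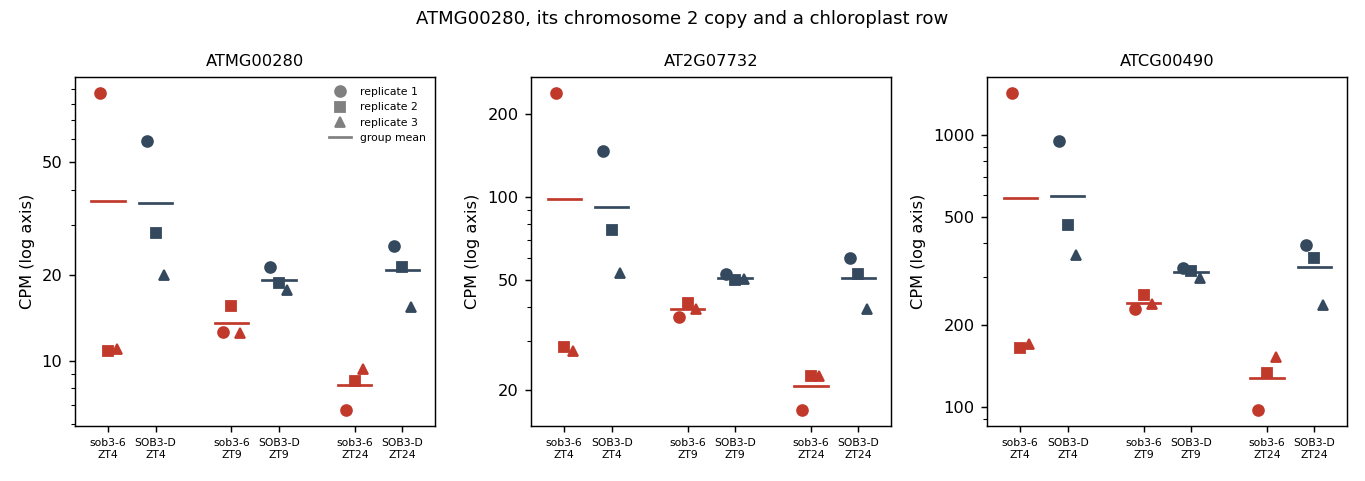
CPM (log axis) of ATMG00280, its chromosome 2 copy AT2G07732 and the chloroplast row ATCG00490 in each library, by genotype and time, with a line at the group mean. In all 3 rows the sob3-6 libraries lie below the SOB3-D libraries at ZT9 and ZT24, and at ZT4 replicate 1 is highest in both genotypes.

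Between time points, with both genotypes in the contrast, levels of a few members fell and none rose. For ZT9 against ZT4 limma called 0 of 64, beside 44.9% of all transcripts, 1 member had an unadjusted p under 0.05, and edgeR's quasi-likelihood test called 8 members as lower, beside 19.5% of all transcripts. For ZT24 against ZT9 1 member fell, beside 22.8% of all transcripts in that direction and 44.9% in either. For ZT24 against ZT4 6 members fell, beside 18.2% and 45.3%, and edgeR called 15 as lower, beside 22.4%. The 3 limma counts are smaller shares of the members than those backgrounds. The median differences of the members were -0.32, -0.02 and -0.35 in the same order. With the replicate block 10 members were lower for ZT9 against ZT4, beside 17.9% of all transcripts, and 13 for ZT24 against ZT4, beside 19.8%. Here and below the block in a comparison of times joins equal replicate numbers across times. The methods state shared plates for the genotypes of a replicate, and do not state them across times.

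The members with the smallest p for ZT9 against ZT4 were ATMG00030, at -0.46 ± 0.22 (SE, limma adjusted p = 0.0972), and ATMG01200, at -0.46 ± 0.22 (SE, limma adjusted p = 0.102). At ZT4 ATMG01200 had 22.8, 8.84 and 11.4 CPM in sob3-6 against 26.6, 10.3 and 17.6 CPM in SOB3-D. At ZT9 ATMG01200 had 11.6, 11.5 and 10.4 CPM in sob3-6 against 8.05, 11.9 and 11.6 CPM in SOB3-D. At ZT24 ATMG01200 had 9.89, 6.72 and 9.16 CPM in sob3-6 against 18.3, 13.2 and 12.5 CPM in SOB3-D. ATMG01200, without annotation here, was separate between the genotypes at ZT24, with sob3-6 below, and was highest in replicate 1 of both genotypes at ZT4. By group means 49 of 64 members were highest at ZT4 in sob3-6 and 50 in SOB3-D, the time of a high replicate 1 library in each genotype.

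ATMG00370 was the member that fell for ZT24 against ZT9. At ZT4 ATMG00370 had 40.5, 36.9 and 34.1 CPM in sob3-6 against 34.7, 44.8 and 33.4 CPM in SOB3-D. At ZT9 ATMG00370 had 28.5, 32.6 and 42.1 CPM in sob3-6 against 36.5, 41.4 and 44.2 CPM in SOB3-D. At ZT24 ATMG00370 had 28.9, 27.0 and 30.3 CPM in sob3-6 against 27.0, 32.3 and 32.7 CPM in SOB3-D. Its genotypes overlapped at every time, and no library stood far above the rest. The difference was -0.32 ± 0.10 (SE, limma adjusted p = 0.0118) against ZT9 and -0.32 ± 0.10 (SE, limma adjusted p = 0.0112) against ZT4, and both calls held when any 1 of 12 libraries was left out. Without the 3 high libraries the difference against ZT4 was -0.27 (limma adjusted p = 0.0670). Its Pearson r with the sum of the other members was 0.106 over the 18 libraries, the lowest of the 64, where the median member had 0.849. The row of its copy AT2G07739 had 0.861 times its CPM in the median library and differed by -0.32 ± 0.10 (SE, limma adjusted p = 0.0156) for ZT24 against ZT9.

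The largest falls for ZT24 against ZT4 were those of ATMG00280 at -1.02 ± 0.38 (SE, limma adjusted p = 0.0385), ATMG00500, annotated as an unknown protein, at -0.76 ± 0.24 (SE, limma adjusted p = 0.0170), and ATMG00580, without annotation here, at -0.72 ± 0.28 (SE, limma adjusted p = 0.0413). At ZT4 ATMG00500 had 3.94, 1.75 and 1.43 CPM in sob3-6 against 3.83, 2.17 and 2.16 CPM in SOB3-D. At ZT9 ATMG00500 had 1.79, 1.76 and 1.12 CPM in sob3-6 against 1.49, 1.26 and 2.19 CPM in SOB3-D. At ZT24 ATMG00500 had 1.099, 1.30 and 0.982 CPM in sob3-6 against 2.40, 1.34 and 0.615 CPM in SOB3-D. ATMG00500 was low throughout, and replicate 1 at ZT4 was its highest library in each genotype. At ZT4 ATMG00580 had 23.8, 6.05 and 6.57 CPM in sob3-6 against 16.3, 9.75 and 10.8 CPM in SOB3-D. At ZT9 ATMG00580 had 8.71, 10.2 and 7.99 CPM in sob3-6 against 7.80, 7.16 and 5.41 CPM in SOB3-D. At ZT24 ATMG00580 had 3.42, 6.48 and 6.66 CPM in sob3-6 against 11.5, 7.31 and 5.43 CPM in SOB3-D. ATMG00580 had the same high libraries at ZT4 and was separate between the genotypes at ZT9 alone, with sob3-6 above. The other 3 that fell were ATMG00370, ATMG01000 at -0.52 and ATMG00510 at -0.53. Without replicate 1 of sob3-6 at ZT4 the count was 2, in a fit whose share of all transcripts is not given, and the difference of ATMG00280 was -0.53. Leaving out 1 library ended the call of ATMG00500 in 2 of 12 fits, of ATMG00280 and ATMG00580 in 6 each, of ATMG00510 in 7 and of ATMG01000 in 1, that without replicate 1 of sob3-6 at ZT4.

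Within single genotypes the medians of the members had opposite signs between ZT9 and ZT24. For ZT24 against ZT9 the median difference of the members was -0.33 in sob3-6, with 13 of 64 above 0, and 0.30 in SOB3-D, with 61 of 64 above 0. The SOB3-D value includes replicate 1 at ZT24, with a total of 1314 CPM. Replicate 3 of SOB3-D at ZT24, at 688 CPM, lay below every SOB3-D total at ZT9, the lowest of which was 706 CPM. The part of replicate 1 in this median was not tested. Limma called 1 member as lower in sob3-6, ATMG01000 at -0.75 ± 0.23 (SE, limma adjusted p = 0.0234), beside 26.7% of all transcripts. In SOB3-D it called 1 as lower, ATMG00370 at -0.40 ± 0.14 (SE, limma adjusted p = 0.0268), beside 38.2%. For ZT9 against ZT4 the medians were -0.14 in sob3-6 and -0.53 in SOB3-D, and 0 members passed in either, beside 26.5% and 34.7% of all transcripts. For ZT24 against ZT4 2 members were lower in sob3-6, ATMG01000 and ATMG00510, beside 26.3%, and 0 in SOB3-D, beside 38.8%. Whether a member moved differently in the genotypes was tested as the change of the genotype difference.

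**Figure D5:**
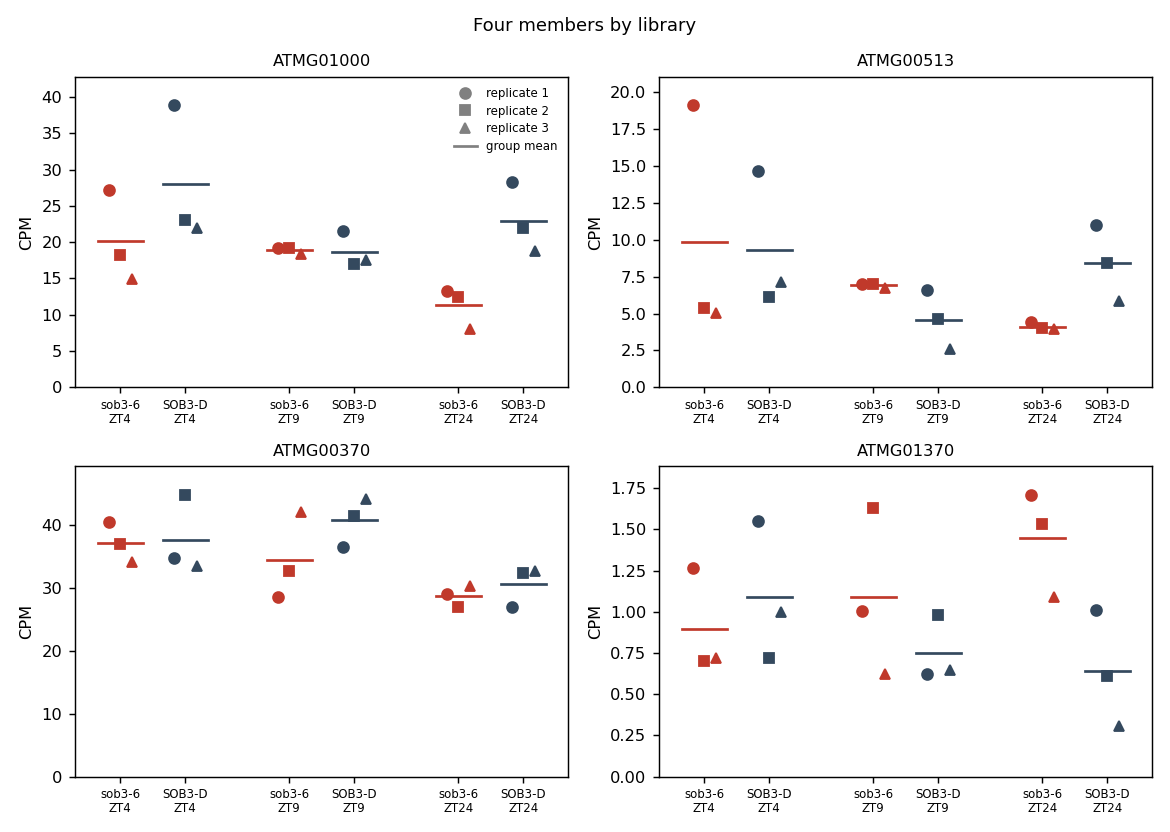
CPM (y axis from 0) in each library, by genotype and time, of ATMG01000 and ATMG00513, lower in sob3-6 at ZT24, of ATMG00370, lower at ZT24 than at ZT9 and ZT4, and of ATMG01370, higher in sob3-6 at ZT24 relative to the mitochondrial total. Lines are group means, and ATMG00370 alone among them shows no high replicate 1 library at ZT4.

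The change of the genotype difference between times passed for no member without the replicate block. Limma called 0 of 64 for ZT9 against ZT4, beside 1.5% of all transcripts, 0 for ZT24 against ZT9, beside 4.17%, and 0 for ZT24 against ZT4, beside 3.04%. The members with an unadjusted p under 0.05 numbered 0, 5 and 1, and edgeR called 0 in each. The median changes were 0.36, -0.59 and -0.27 in that order, which share libraries. With time point and replicate number together as the block, 11 members passed for ZT24 against ZT9, each with a lower genotype difference at ZT24 than at ZT9, beside 2.99% of all transcripts. In all, 5 members had sob3-6 above SOB3-D in every library at ZT9 and below in every library at ZT24, beside 1.08% of all transcripts. Named after their values were seen, they were ATMG00030, ATMG00220, annotated as apocytochrome b, ATMG00410, annotated as subunit 6 of ATP synthase, ATMG00513 and ATMG01170. For the mitochondrial total the difference changed by -0.75 for ZT24 against ZT9, 0.37 for ZT9 against ZT4 and -0.38 for ZT24 against ZT4, given as values without a test.

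For ZT9 against ZT4 the smallest p values of this change were those of ATMG01020, at 0.99 ± 0.49 (SE, limma adjusted p = 0.480), and ATMG00990, at 0.69 ± 0.38 (SE, limma adjusted p = 0.547). At ZT4 ATMG01020 had 1.69, 0.233 and 0.359 CPM in sob3-6 against 2.19, 1.44 and 0.998 CPM in SOB3-D. At ZT9 ATMG01020 had 0.558, 0.752 and 0.999 CPM in sob3-6 against 0.743, 0.421 and 0.773 CPM in SOB3-D. At ZT24 ATMG01020 had 0.855, 0.707 and 0.655 CPM in sob3-6 against 1.14, 0.852 and 0.615 CPM in SOB3-D. ATMG01020 lay near the level of 3 reads in several libraries, and its groups overlapped at every time. For ZT24 against ZT9 they were those of ATMG01000, at -1.03 ± 0.33 (SE, limma adjusted p = 0.0997), and ATMG00285, at -1.39 ± 0.47 (SE, limma adjusted p = 0.123). At ZT4 ATMG00285 had 6.61, 2.33 and 2.39 CPM in sob3-6 against 4.29, 3.34 and 2.16 CPM in SOB3-D. At ZT9 ATMG00285 had 3.13, 3.89 and 3.12 CPM in sob3-6 against 2.23, 1.68 and 1.67 CPM in SOB3-D. At ZT24 ATMG00285 had 1.47, 1.41 and 1.75 CPM in sob3-6 against 4.42, 1.58 and 2.87 CPM in SOB3-D. ATMG00285 was separate at ZT9, with sob3-6 above. For ZT24 against ZT4 they were those of ATMG01370, at 0.98 ± 0.43 (SE, limma adjusted p = 0.264), and ATMG01130, at -1.04 ± 0.58 (SE, limma adjusted p = 0.418). At ZT4 ATMG01130 had 8.72, 5.24 and 2.51 CPM in sob3-6 against 7.66, 6.32 and 2.99 CPM in SOB3-D. At ZT9 ATMG01130 had 3.24, 5.27 and 4.62 CPM in sob3-6 against 3.96, 2.39 and 5.54 CPM in SOB3-D. At ZT24 ATMG01130 had 2.56, 1.53 and 2.18 CPM in sob3-6 against 8.58, 4.63 and 3.28 CPM in SOB3-D. ATMG01130 was separate at ZT24, with sob3-6 below. ATMG01020, ATMG00285, ATMG01370 and ATMG01130 carry no annotation here.

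Relative to the mitochondrial total of each library, ATMG00280 was lower in sob3-6 at ZT9 and ATMG01370 was higher in sob3-6 at ZT24. Limma called 0 of 64 at ZT4, beside 0.266% of all transcripts on this scale, with 0 at an unadjusted p under 0.05. It called 1 as lower at ZT9, beside 9.65% in that direction and 12.9% in either, and 1 as higher at ZT24, beside 9.24% and 9.32%. Dividing by the total shifts every transcript, so the median over all transcripts was 0.26 at ZT4, -0.12 at ZT9 and 0.60 at ZT24, beside 0.05, -0.02 and 0.11 over the members. The difference of ATMG00280 at ZT9 was -0.65 ± 0.14 (SE, limma adjusted p = 0.0164), a call lost without replicate 1 or 2 of SOB3-D (limma adjusted p = 0.0751 and 0.0569). The difference of ATMG01370 at ZT24 was 1.40 ± 0.44 (SE, limma adjusted p = 0.0268). At ZT4 ATMG01370 had 1.27, 0.698 and 0.717 CPM in sob3-6 against 1.55, 0.722 and 0.998 CPM in SOB3-D. At ZT9 ATMG01370 had 1.005, 1.63 and 0.625 CPM in sob3-6 against 0.619, 0.982 and 0.644 CPM in SOB3-D. At ZT24 ATMG01370 had 1.71, 1.53 and 1.09 CPM in sob3-6 against 1.01, 0.609 and 0.307 CPM in SOB3-D. ATMG01370 was separate at ZT24, with sob3-6 above, and in CPM its difference was 0.80 ± 0.30 (SE, limma adjusted p = 0.157). Its relative call was lost without any 1 sob3-6 library or replicate 2 of SOB3-D (limma adjusted p between 0.122 and 0.223). With the replicate block 2 members were lower at ZT9, ATMG00280 and ATMG00370, beside 15.2% of all transcripts. At ZT24 2 passed, ATMG01370 as higher and ATMG00280 as lower at -0.68, beside 37.4%.

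On this scale the variance of nuclear transcripts includes that of the total, and limma draws the variance of each member toward it. Without this moderation, a setting added after the data were seen, limma's fit called 0 members at ZT9, beside 2.17% of all transcripts, and 0 at ZT24, beside 0.00354%. The unadjusted p was then under 0.05 for 3 members at ZT4, 3 at ZT9 and 9 at ZT24, counts without the share of all transcripts beside them. In the moderated fit the smallest p values at ZT4 were those of ATMG00290, at -0.76 ± 0.59 (SE), and ATMG01020, at -0.62 ± 0.63.

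Between times, relative to the total, limma called 0 of 64 for ZT9 against ZT4, beside 23.3% of all transcripts, 0 for ZT24 against ZT9, beside 12.4%, and 0 for ZT24 against ZT4, beside 28.5%. The members with an unadjusted p under 0.05 numbered 1, 0 and 4, and with the replicate block 0, 0 and 2 passed, the last beside 45.7% of all transcripts and being ATMG00280 as lower and ATMG00530 as higher. ATMG00530, annotated as an unknown protein, was at 0.70 ± 0.35 (SE, limma adjusted p = 0.118) for ZT9 against ZT4 and 0.72 ± 0.35 (SE, limma adjusted p = 0.0949) for ZT24 against ZT4. ATMG00280 was at -0.37 ± 0.27 (SE, limma adjusted p = 0.276) and -0.63 ± 0.27 (SE, limma adjusted p = 0.0576) in the same comparisons. For ZT24 against ZT9 the smallest p values were those of ATMG01330, at 0.46 ± 0.32 (SE, limma adjusted p = 0.462), and ATMG00590, annotated as a cytochrome b/b6 protein, at 0.38 ± 0.30 (SE, limma adjusted p = 0.560). At ZT4 ATMG00530 had 0.984, 0.698 and 0.359 CPM in sob3-6 against 0.730, 0.0903 and 0.665 CPM in SOB3-D. At ZT9 ATMG00530 had 0.670, 1.003 and 1.12 CPM in sob3-6 against 0.619, 1.26 and 0.515 CPM in SOB3-D. At ZT24 ATMG00530 had 1.47, 0.825 and 0.109 CPM in sob3-6 against 1.89, 0.974 and 0.410 CPM in SOB3-D. ATMG00530 ranged down to 1 read, which is 0.0903 CPM in replicate 2 of SOB3-D at ZT4. At ZT4 ATMG01330 had 2.11, 1.75 and 0.956 CPM in sob3-6 against 1.73, 1.08 and 2.33 CPM in SOB3-D. At ZT9 ATMG01330 had 0.893, 1.88 and 1.75 CPM in sob3-6 against 0.991, 1.54 and 1.42 CPM in SOB3-D. At ZT24 ATMG01330 had 2.32, 1.65 and 1.96 CPM in sob3-6 against 2.02, 2.44 and 1.64 CPM in SOB3-D. ATMG01330 is noted on a chromosome 2 pseudogene with no function named. At ZT4 ATMG00590 had 5.91, 3.61 and 2.15 CPM in sob3-6 against 4.74, 2.62 and 2.66 CPM in SOB3-D. At ZT9 ATMG00590 had 2.12, 3.26 and 3.25 CPM in sob3-6 against 2.11, 2.11 and 2.70 CPM in SOB3-D. At ZT24 ATMG00590 had 2.81, 2.71 and 3.38 CPM in sob3-6 against 4.54, 3.78 and 2.97 CPM in SOB3-D. The groups of these 3 members overlapped at every time. The share of the total varied least for ATMG01190, with a coefficient of variation of 9.50% over the 18 libraries, where the median member had 23.8% for its share and 45.4% for its CPM.

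By role, the differences of all members annotated here to the respiratory complexes or to ATP synthase were below 0 at ZT24. Without the replicate block 0 of these annotated members passed between genotypes there. The members without annotation were placed in no role, and some of them may belong to these complexes. With the block ATMG01190, ATMG01080 and ATMG00730 passed as lower in sob3-6 (limma adjusted p = 0.000836, 0.00274 and 0.0297), beside 4.99% of all transcripts. The 5 members annotated to ATP synthase, the enzyme that makes ATP from the proton gradient, held 19.5% of the mean total and lay between -0.66 and -0.28. The 3 members annotated to complex I (ATMG00990, ATMG01275 and ATMG01320), the NADH dehydrogenase at the start of the chain, lay between -0.56 and -0.33. The rows annotated as cytochrome b, the core of complex III, were at -0.70 for ATMG00220 and -0.29 for ATMG00590. Those annotated to cytochrome c oxidase, the complex that reduces oxygen, were at -0.66 for ATMG00730 and -0.12 for ATMG01280, noted as subunit II-like. The copies of ATMG01090, ATMG00590, ATMG01280 and ATMG01320 were not matched to a named mitochondrial gene. Their roles in these complexes rest on the annotation alone. The 3 cytochrome c biogenesis members, which attach haem to cytochrome c, lay between -0.43 and 0.01, and the 4 ribosomal protein members between -1.04 and -0.33, of which 0 passed without the block and ATMG00980 passed with it (limma adjusted p = 0.0364). The 34 members without annotation held 52.5% of the mean total and had a median of -0.56. Without the block 2 of them, ATMG01000 and ATMG00513, passed as lower, beside 2.08% of all transcripts. At ZT9 the medians were 0.12 for ATP synthase, 0.38 for complex I and 0.30 for cytochrome b. They were 0.08 for cytochrome c oxidase, 0.21 for cytochrome c biogenesis and 0.22 for ribosomal proteins. Of the members annotated to these roles 0 passed at ZT9, with the block or without it. ATMG00640 and ATMG00030, which passed as higher there with the block, carry no annotation here and lie outside these counts.

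Nuclear genes of the same pathways were counted from lists of respiratory chain subunits (23 tested), of alternative respiration, which bypasses parts of the chain (12 tested of 13), and of organellar transcription and RNA decay (4 tested). Between genotypes 0 respiratory chain subunits and 0 genes of transcription and decay passed at any time, and 1 gene of alternative respiration did, NDA1 at ZT4. Beside these counts 6.63% of all transcripts passed at ZT4, 10% at ZT9 and 7.01% at ZT24, in either direction. NDA1 encodes an internal NAD(P)H dehydrogenase that bypasses complex I. At ZT4 NDA1 had 32.5, 28.7 and 41.8 CPM in sob3-6 against 70.4, 55.0 and 62.4 CPM in SOB3-D. At ZT9 NDA1 had 4.58, 2.63 and 2.12 CPM in sob3-6 against 2.73, 5.05 and 4.89 CPM in SOB3-D. At ZT24 NDA1 had 40.9, 40.1 and 39.8 CPM in sob3-6 against 34.8, 33.4 and 36.3 CPM in SOB3-D. NDA1 was separate at ZT4, with sob3-6 below, and at ZT24, with sob3-6 above, and low in both genotypes at ZT9. Its ZT4 difference was -0.87 ± 0.15 (SE, limma adjusted p = 0.0112). Between times NDA1 fell by 3.54 ± 0.15 (SE, limma adjusted p = 4.00e-12) on the log2 scale for ZT9 against ZT4 and rose by 3.25 ± 0.15 (SE, limma adjusted p = 7.83e-12) for ZT24 against ZT9.

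Of the respiratory chain subunits 2 rose and 1 fell for ZT9 against ZT4, 2 rose and 2 fell for ZT24 against ZT9, and 1 rose and 1 fell for ZT24 against ZT4. The largest change was in CYTC-2, a cytochrome c, at -0.85 ± 0.13 (SE, limma adjusted p = 4.82e-05) for ZT9 against ZT4 and 0.62 ± 0.13 (SE, limma adjusted p = 0.000853) for ZT24 against ZT9. In alternative respiration 1 rose and 1 fell, 3 rose and 1 fell, and 4 rose and 1 fell in the same order of comparisons. Among them AOX2, an alternative oxidase that takes electrons past complexes III and IV, rose by 0.69 ± 0.20 (SE, limma adjusted p = 0.0108) for ZT24 against ZT4. In transcription and decay 3 rose and 0 fell, 1 rose and 2 fell, and 2 rose and 0 fell. The backgrounds of these comparisons of times are 44.9%, 44.9% and 45.3% of all transcripts in either direction, in the same order. The share that rose alone is not given.

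The libraries held 6012747 to 11076919 mapped reads, of which the members took 0.0558% to 0.163%, or 5040 to 17417 reads. The SOB3 row AT1G76500 was at 227 to 331 CPM in sob3-6 and 133 to 235 CPM in SOB3-D, with separate groups at each time, a level that cannot show the missense change. Markers of leaf (RBCS1A, LHCB1.1, RBCS1B), root (PLT1, SCR, SHR), root hair (EXPA7, COBL9) and guard cell (FAMA) tissue were above 0 in all 18 libraries, as whole seedlings hold these organs. Between genotypes RBCS1B alone of these markers passed, at ZT9 and ZT24 (limma adjusted p = 0.0418 and 0.0183). Of all transcripts 10% and 7.01% did. For ZT24 against ZT9 the genotype difference changed in RBCS1B and LHCB1.1 (limma adjusted p = 0.00317 and 0.0273), beside 4.17%. What green tissue adds to the differences of the members was not tested.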

How the data were processed

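RNA was sequenced from 18 libraries, 3 of each genotype at each of 3 times. The authors used Bowtie to place single reads on the cDNA sequences of TAIR10, with all best hits kept. The deposited signal values, called CPM by the authors, are reads on a transcript divided by the mapped reads of the library, and a read counts on every transcript it hits, so columns sum to 1546178 to 1573550.2. All values are whole multiples of 1 read within a tolerance of 0.01. From these values limma 3.58.1 (R 4.3.3, eBayes with trend) was fitted on log2(CPM + 0.5) over the 28215 transcripts whose mean reached 0.5 CPM, with Benjamini-Hochberg adjustment and a threshold of 0.05, in the 6 libraries of a time for genotype and in all 18 for time and for the change of the genotype difference. The replicate block and edgeR 4.0.16 (quasi-likelihood, TMM, on the recovered reads) were alternatives, with another pseudocount, no minimum, TMM scaling, other sets of libraries and each library left out. The mitochondrial total was tested by exact permutation (Python 3.11.15).

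Both genotypes of a replicate number shared plates per the study's methods, so the numbers pair the genotypes within a time. Shared plates across times are not stated there. Deviations from the group mean correlated at 0.0935 to 0.320 in 9 pairs of the same number and -0.225 to 0.110 in 18 others. Replicates are pooled seedlings, and p-values measure the spread between them. Total depth was 6012747 to 11076919 mapped reads, so 1 read was 0.0903 to 0.166 CPM. On simulated data with 200 changed transcripts the limma fit recovered 183 for genotype at ZT4, with 4 false calls. The changed transcripts excluded those of low level, and 1 spread was set for all transcripts. The median SE at ZT4 in the real data was 0.38 for the members, beside 0.14 over all tested transcripts. The simulation therefore does not give the recovery for the members. Values in every library are given for the 10 highest members, for up to 3 members per direction that passed a comparison or else the 2 of smallest p, and as means for the rows nearest the minimum. The members and lists were chosen with earlier results of these data known. Roles come from RefSeq notes (TAIR10.1) only. No per-sample column was left out.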

Additional observations from a re-analysis of the deposited data

Results flagged for a closer look

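The mitochondrial total had genotype differences of opposite sign at ZT24 and ZT9. The log2 difference of sob3-6 against SOB3-D was -0.59 at ZT24 and 0.16 at ZT9, with no overlap of the genotypes at either time, and differed by -0.75 between them. No valid test of this difference between times is given, since an exchange of genotype labels, tried after the data were seen, has its p fixed by the separation at both times. Replicate 1 of SOB3-D, with 1314 CPM at ZT24, is part of this value, and its part in the result was not tested. Without it the ZT24 difference was -0.34.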

How the results depend on the processing

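Among the members that passed a comparison, 146 of 207 values under an alternative kept direction and call, 61 kept the direction and lost the call, and 0 turned sign. Counts below whose share of all transcripts is not given above have no background to be read against. Between genotypes the count of members called was 4 at ZT4 with the replicate block, against 0 without it. At ZT9 the count of 1 became 0 with no minimum on CPM and 0 in a fit of all 18 libraries, 3 with the replicate block, and 0 to 2 when 1 library was left out, with 2 without SOB3-D replicate 3 and 0 without any other. At ZT24 the count of 3 became 0 with no minimum, 1 in a fit of all 18 libraries, 16 with the replicate block, and 1 to 7 when 1 library was left out, with 7 without SOB3-D replicate 3 and 1 without sob3-6 replicate 2, SOB3-D replicate 1 or SOB3-D replicate 2. For ZT9 against ZT4 the count of 0 became 8 with edgeR, 10 with the replicate block and 0 to 6 when 1 library was left out, with 6 without sob3-6 replicate 3, 3 without sob3-6 replicate 2 and 1 without SOB3-D replicate 2, each at ZT4. For ZT24 against ZT4 the count of 6 became 15 with edgeR, 3 in a fit of 12 libraries, 13 with the replicate block and 2 to 15 when 1 library was left out. Its count without sob3-6 replicate 3 at ZT4 was 15, without SOB3-D replicate 1 at ZT24 13, and without sob3-6 replicate 2 at ZT4 10, while it was 3 without SOB3-D replicate 1 at ZT4 or sob3-6 replicate 1 at ZT24, and 2 without sob3-6 replicate 1 at ZT4 or SOB3-D replicate 3 at ZT24. The change of the genotype difference for ZT24 against ZT9 gave 11 with the replicate block, against 0.

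Relative to the total, the count at ZT9 was 2 with the replicate block, 0 without moderation of the variance and 0 to 3 when 1 library was left out. At ZT24 it was 2 with the block, 0 without moderation and 0 to 3 when 1 library was left out. For ZT9 against ZT4 it was 1 without moderation. For ZT24 against ZT4 it was 1 with a pseudocount of 0.1 CPM, 1 relative to the median of the members, 2 with the replicate block, 2 without moderation and 0 to 1 when 1 library was left out. With the 3 libraries of highest total left out, a setting chosen like the lack of moderation after seeing the data, the counts were 1 at ZT4, 1 at ZT24, 2 for ZT24 against ZT9 and 1 for its change of the genotype difference. Relative to the total they were 1 at ZT4, 2 at ZT24 and 3 for ZT24 against ZT9. The shares of all transcripts in the fits without these libraries are not given, so these counts have no background. The block moved no other count by more than 1.5 times.

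The log2 difference of the total for ZT9 against ZT4 was 0.0208 without those 3 libraries and -0.49 to -0.13 when 1 library was left out. For ZT24 against ZT9 leaving out 1 library gave -0.18 to 0.0530, the positive value being that without SOB3-D replicate 3 at ZT24. With pairs of the same replicate number the exact permutation p of the total was 0.0625 for ZT24 against ZT4 and 0.145 for genotype, where 4 of 9 pairs were positive. The pairs for ZT24 against ZT4 join replicate numbers across times, for which shared plates are not stated. The fits with fewer samples or other transcripts change the spread and the adjustment, and beyond this the cause was not tested.

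Depth limits the lowest members, where 1 read was 0.0903 to 0.166 CPM. Poly(A) selection, reads shared with nuclear and plastid copies, pooled seedlings and 3 libraries per group limit every value.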
